A study of Homo sapiens with 4 samples.

Results

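MIR139 is a miRNA gene inside an intron of PDE2A, and its hairpin gives the mature miRNAs hsa-miR-139-5p and hsa-miR-139-3p, which are the 2 arms described here out of 2656 human mature miRNAs in the deposited count table. The counts come from 4 small RNA-seq libraries of cortical interneurons, inhibitory nerve cells differentiated in culture from the H1 human embryonic stem cell line. In 2 cultures the maturation medium held ethanol at around 50 to 100 mM for 7 days, and 2 cultures spent those 7 days without it. The maturation medium held BDNF, ascorbic acid and cAMP, and the exposed cells were given a further day without ethanol before collection. A single stem cell line was used, the experiments were done in duplicate, and the sources used here do not say whether the duplicates were separate differentiations, so that P values measure only the spread between these libraries. Both arms were found in all 4 libraries, and both were among the 863 miRNAs that passed the filter on low counts. The pair was chosen by measured values of these same libraries, since hsa-miR-139-3p was already known to have an unadjusted P under 0.05 between exposed and unexposed cells. The exposure values below are therefore a description of both arms and not a test.

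A miRNA hairpin is cut by Drosha in the nucleus and again by Dicer in the cytoplasm, which leaves a short duplex of the 5p and the 3p strand. An Argonaute protein keeps a strand of that duplex as its guide, the other is mostly degraded, and the strand whose 5′ end is less tightly paired tends to be kept. The guide finds target mRNAs mainly through its seed, bases 2 to 8 from its 5′ end. PDE2A, the host gene, codes for a phosphodiesterase that breaks down cAMP and cGMP and is abundant in forebrain neurons. The 5p arm is best known from work on tumours, where IGF1R, ROCK2 and CXCR4 are among its described targets, and much less has been written on the 3p arm.

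The 2 arms are shown because their seeds differ, so that each arm has its own set of possible targets, and the hairpin because it shows how they pair. In the mature sequences the capitals mark the seed, and in the hairpin they mark both arms (RefSeq, GRCh38.p14).
hsa-miR-139-5p: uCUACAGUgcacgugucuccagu
hsa-miR-139-3p: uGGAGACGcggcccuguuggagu
MIR139 hairpin: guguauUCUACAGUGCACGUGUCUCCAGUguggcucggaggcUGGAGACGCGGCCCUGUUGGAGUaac

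MIR139 lies on the minus strand of chromosome 11, chr11:72615063-72615130 of GRCh38, within PDE2A (chr11:72576141-72674591), which is transcribed from the same strand. The 5p arm covers chr11:72615102-72615124 and the 3p arm chr11:72615066-72615088. In GENCODE 29 no exon of PDE2A overlaps the hairpin, 17 of the 27 annotated PDE2A transcripts span it, and the nearest annotated exons on either side are 22326 bases apart, so the hairpin is intronic. It is not part of a miRNA cluster: the nearest annotated miRNA genes are MIR4692, 168399 bases away, and MIR3165, 542760 bases away. These neighbours were picked by position, after the other values had been seen. The table held 0 counts of miR-4692 in any library and 3, 4, 0 and 2 counts of miR-3165. Among 2368 other human mature miRNAs with a RefSeq sequence, 0 had the seed of either arm, and 0 had the same bases 2 to 7. The longest run of bases that either arm shared with another mature miRNA was 9, against a length of 23 bases for both arms.

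Each arm has 23 bases, with a G+C content of 52.2% in the 5p and 65.2% in the 3p arm. In the structure of lowest predicted energy (-35.6 kcal/mol, ViennaRNA), 25 base pairs formed, and 19 bases of each arm were paired with the other arm. Of the first 4 bases of the 5p arm, 1 was in a G-C, 2 were in A-U and 1 was in a G-U pair. Of the first 4 bases of the 3p arm, 2 were in G-C and 2 in A-U pairs. A predicted fold is a description of the sequence and was not measured in these cells.

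**Figure D1:**
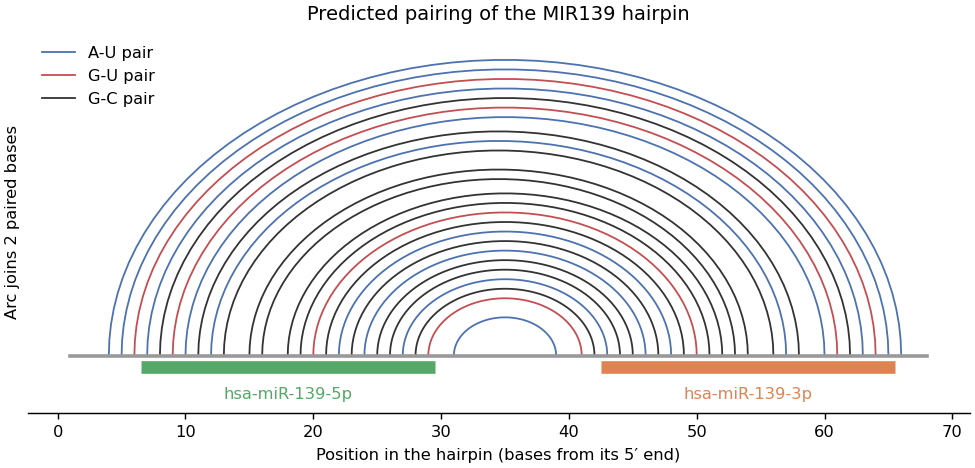
Predicted pairing of the MIR139 hairpin, with the position in bases from its 5′ end on the x axis. Each arc joins 2 paired bases and is coloured by pair type, and the bars mark the 5p arm (bases 7 to 29) and the 3p arm (bases 43 to 65), which pair with each other over 19 bases.

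The deposited values are raw read counts, which summed to between 12100425 and 24858230 per library, with each exposed library deeper than each unexposed library. Neuronal miRNAs were abundant in every library: the 12 neuronal markers in the table, such as miR-9-5p, miR-124-3p and miR-128-3p, summed to 352940 to 389410 CPM (counts per 1000000 counts of the library) in the exposed and to 396740 to 414960 CPM in the unexposed libraries. After TMM scaling, described with the 5p levels, these sums were 310990 to 397650 and 373060 to 490440 CPM and overlapped. Singly, 7 of the 12 had a log2 fold change above 0, against 421 of all 863 tested miRNAs (48.8%), and 1, miR-124-3p, was called higher (0.77), that is, by over 1.3-fold with an unadjusted P under 0.05 in edgeR, against 2.55% of all tested. These markers do not tell interneurons from other neurons. Of the pluripotency markers, miR-367-3p and miR-373-3p had 0 counts, and the 7 together summed to 2.74 to 2.86 CPM in exposed and 2.94 to 4.13 CPM in unexposed libraries. After TMM scaling their sums were also lower in both exposed libraries, at 2.42 to 2.92 against 3.48 to 3.89 CPM. The endothelial markers, both arms of miR-126, summed to 908 to 1158 CPM in exposed and 756 to 858 CPM in unexposed cultures. Their sums were higher in both exposed libraries, as the miR-139 arms were, also after TMM scaling (927 to 1021 against 807 to 894 CPM). Their log2 fold changes were 0.19 (miR-126-3p, standard error 0.21) and 0.46 (miR-126-5p, standard error 0.28). Of all 863 tested miRNAs, 162 were higher in both exposed libraries than in both unexposed ones, or 18.8%, and 126 were lower in both. The 5 blood cell markers were near 0, at 0.630 to 0.724 CPM in exposed and 0.165 to 0.502 CPM in unexposed libraries, with miR-223-3p and miR-142-3p at 0 counts, and their sums overlapped after TMM scaling. The sums of the oligodendrocyte, mesenchyme, skeletal muscle and liver markers overlapped between the groups, and the highest of them was 341 CPM. The part of depth or of any of these cell types in the values below was not tested. In bulk libraries, fewer cells of a type and less RNA per cell cannot be told apart.

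hsa-miR-139-5p was the more abundant arm, and it was higher in both exposed libraries than in either unexposed library. It had 26797 counts in exposed replicate 1, 21760 in exposed replicate 2, 9419 in unexposed replicate 1 and 8108 in unexposed replicate 2. As a share of all counts this was 1206 CPM in exposed replicate 1, with a 95% Wilson interval from 1191.5 to 1220.3, and 875 CPM in exposed replicate 2, with one from 864 to 887. The unexposed cultures had 676 CPM (662 to 689) and 670.1 CPM (656 to 685). The intervals cover counting error only, since reads without molecular identifiers are not independent molecules. After TMM scaling, which evens out libraries by the bulk of their miRNAs, the level was 1063 and 894 CPM with ethanol and 798 and 630.1 CPM without it. The 2 exposed cultures were thus 169 CPM apart, the 2 unexposed cultures 168 CPM, and the lower exposed value lay 95.4 CPM above the higher unexposed value. After this scaling the gap between the groups was therefore smaller than the distance between replicates of either group. Before scaling, the unexposed cultures lay close together, at 676 and 670.1 CPM, below the 875 CPM of exposed replicate 2.

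hsa-miR-139-3p was the less abundant arm in every library, and its exposed libraries were nearly identical after scaling. Its counts were 4828 and 4647 with ethanol, against 1325 and 1582 without. Before scaling the shares were 217 CPM (95% Wilson interval from 211 to 223), 187 CPM (182 to 192), 95.04 CPM (90.1 to 100.3) and 131 CPM (124 to 137), in the same order. After TMM scaling they were 191.4 and 190.9 CPM in exposed and 112 and 123 CPM in unexposed cells. After this scaling the groups lay much further apart than the replicates: the lower exposed value was 68.0 CPM above the higher unexposed one. Such a gap enters the P that chose the pair, so it is given as a description only.

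**Figure D2:**
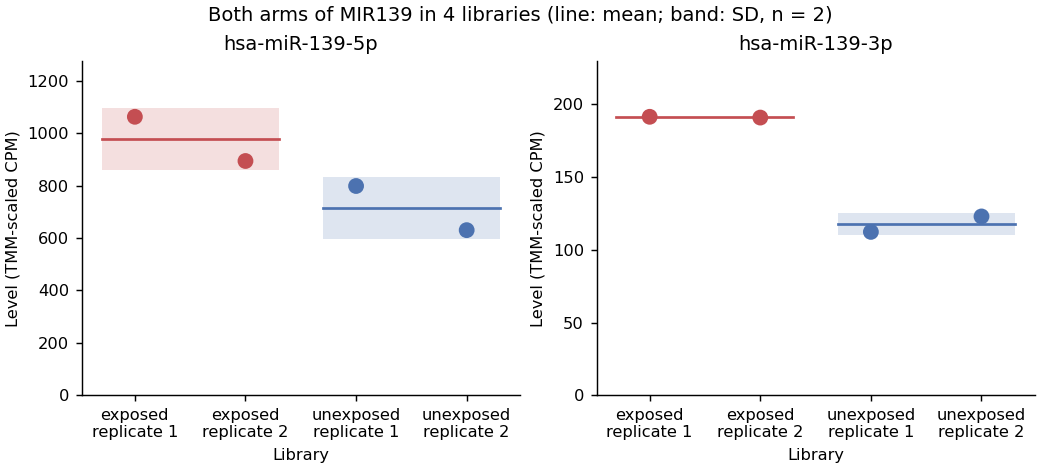
TMM-scaled level (CPM, y axis from 0) of each arm in each library, with hsa-miR-139-5p on the left and hsa-miR-139-3p on the right. Points are libraries, lines are group means and bands are the SD (n = 2). Both exposed libraries lie above both unexposed libraries for each arm, with 894 against 798 CPM as the closest pair for 5p and 190.9 against 123 CPM for 3p.

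As group means, hsa-miR-139-5p stood at 978 ± 119 CPM with ethanol and 714 ± 119 CPM without it (SD, n = 2 each). For hsa-miR-139-3p the means were 191 ± 0.383 and 118 ± 7.51 CPM (SD, n = 2 each). The log2 fold change of exposed over unexposed cells in edgeR's quasi-likelihood fit was 0.45 (standard error 0.23) for 5p, a 1.37-fold difference, and 0.70 (standard error 0.22) for 3p, a 1.63-fold difference. Taken library by library, the 4 log2 differences between an exposed and an unexposed culture ran from 0.16 to 0.75 for 5p and from 0.63 to 0.77 for 3p. The 5p arm therefore had the same direction as the 3p arm in all 4 of these differences, with a wider spread. Without unexposed replicate 2 the log2 fold change of 5p was 0.255, and without exposed replicate 1 it was 0.323.

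The ranks by raw count, which need no scaling, put the groups in the same order. In the exposed libraries hsa-miR-139-5p ranked 70th and 76th among 1610 and 1588 detected miRNAs, and in the unexposed libraries 82nd and 83rd among 1409 and 1441. hsa-miR-139-3p ranked 141st and 137th in the exposed and 161st and 154th in the unexposed libraries. Both arms thus stood higher in each exposed library than in each unexposed library.

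At an unadjusted P below 0.05 and a change of more than 1.3-fold, the thresholds behind the miRNA and mRNA networks of the study, 1 of the 2 arms, hsa-miR-139-3p, was called. Of all 863 miRNAs tested, 22 were called higher in exposed cells, or 2.55%, and 17 were called lower. Those 22 and 17 became 30 and 7 with library size only and 15 and 28 with upper quartile scaling. The unadjusted P of edgeR's quasi-likelihood test was 0.0121 for 3p, which is the value that chose the pair, and 0.0840 for 5p, with a Benjamini-Hochberg adjusted p of 0.922 for each. None of the miRNAs (0 of 863) had an adjusted p under 0.05 in edgeR, limma-voom or DESeq2, against 39 with an unadjusted P under 0.05 in edgeR. Whether the fold changes of the arms differ was not tested, and a P above 0.05 for 5p does not show that it was unaltered. Both exposed libraries were above both unexposed ones for 162 of the 863 miRNAs, or 18.8%, and for both arms of 12 of the 195 precursors with both arms tested, or 6.15%, MIR139 included. Since the contrast chose the pair, nothing is read from these shares. For either arm alone, the smallest two-sided p that exact permutation of these 4 libraries allows is 0.333.

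The choice of scaling moved the fold changes of both arms together with those of all miRNAs. With library size only, the median log2 fold change of all tested miRNAs was 0.145, and with upper quartile scaling it was -0.119, against -0.01 with TMM. Relative to that median, hsa-miR-139-3p was higher by 0.70 to 0.71 and hsa-miR-139-5p by 0.46 to 0.48 on the log2 scale under TMM, DESeq2's size factors, library size only and upper quartile scaling. Among 50 miRNAs nearest in level to hsa-miR-139-3p, 0 had a larger log2 fold change, their median being 0.04. Among the 50 nearest to hsa-miR-139-5p, 3 had a larger one, with a median of -0.04. The same contrast and libraries chose the pair, so nothing is read from either place.

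The distance between replicates enters the P that chose the pair, so for hsa-miR-139-3p it is given as a description only. Its exposed libraries differed by 0.004 on the log2 scale, while the median difference between the exposed libraries over all 863 miRNAs was 0.275, and 0.9% of the miRNAs had a smaller one. The unexposed libraries differed by 0.130 for 3p, at percentile 19.2. For hsa-miR-139-5p the replicates differed by 0.249 in exposed and 0.342 in unexposed cells, at percentiles 45.5 and 42.1 of all tested miRNAs. Among the 50 miRNAs nearest in level to hsa-miR-139-5p, 32 had a smaller difference between exposed and 28 a smaller one between unexposed replicates, with medians of 0.144 and 0.274.

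The arm ratio within a library is free of scaling, since both counts share the same total. hsa-miR-139-3p made up 15.3% of the counts of both arms in the first exposed culture, with a 95% Wilson interval of 14.9 to 15.7%, and 17.6% (17.1 to 18.1%) in the second. In the unexposed cells it made up 12.3% in replicate 1 (11.7 to 13.0%) and 16.3% in replicate 2 (15.6 to 17.1%). The groups overlapped, since unexposed replicate 2 was above exposed replicate 1. In other words, the 5p arm was 5.55 and 4.68 times as abundant as the 3p arm in the exposed libraries, and 7.11 and 5.13 times in the unexposed libraries. The intervals of unexposed replicate 1 and exposed replicate 2 did not overlap those of any other library, while the intervals of exposed replicate 1 and unexposed replicate 2 touched. These intervals treat each read as an independent molecule and so can be too narrow.

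**Figure D3:**
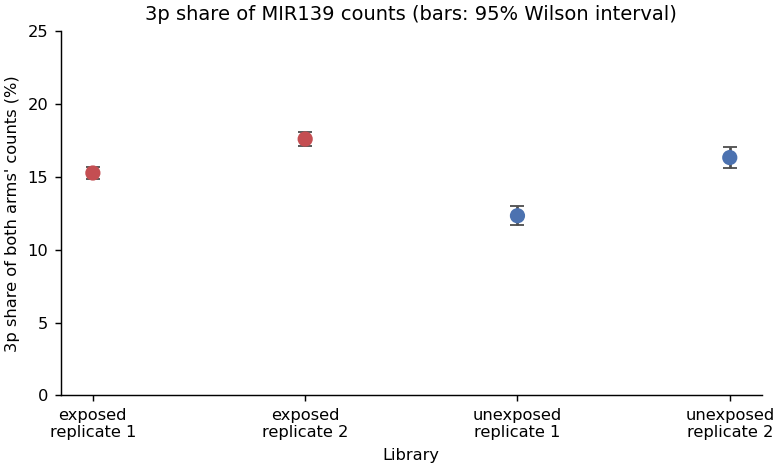
Share of hsa-miR-139-3p in the counts of both MIR139 arms (%, y axis from 0) in each library, with 95% Wilson intervals, which cover counting error only. The shares run from 12.3% in unexposed replicate 1 to 17.6% in exposed replicate 2, and the exposed and unexposed libraries overlap.

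The mean 3p share was 16.4% ± 1.65 (SD, n = 2) in exposed and 14.3% ± 2.82 (SD, n = 2) in unexposed cells, and on the log2 scale the ratio of 3p to 5p was -2.35 ± 0.17 and -2.59 ± 0.33 (SD, n = 2 each). The difference of 0.243 in log2 ratio was smaller than the SD among unexposed libraries. It rested on unexposed replicate 1: without that library it was 0.0074, without unexposed replicate 2 it was 0.479, and without either exposed library it was 0.366 (replicate 1) or 0.121 (replicate 2). Both arms together reached 1254 and 1085 TMM-scaled CPM with ethanol, and 911 and 753 CPM without it. This sum is mostly 5p and includes the arm that chose the pair.

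Against other hairpins, the arm balance of MIR139 was ordinary in direction, and its distance from equality was below the median of all hairpins counted. Of 863 miRNA names with both a 5p and a 3p entry, 455 had a mean of at least 10 counts per library over both arms, and the 5p arm was the more abundant in 236 of them, or 51.9%. The mean log2 ratio of 3p to 5p was -2.47 for miR-139, at percentile 38.7, and the quartiles of all precursors were -4.72 and 4.28. The arms of 112 precursors were nearer to equal counts than those of miR-139, and the median distance from equality was 4.57 on the log2 scale. The more abundant arm was the same in all 4 libraries for 423 of the 455 precursors, miR-139 among them.

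**Figure D4:**
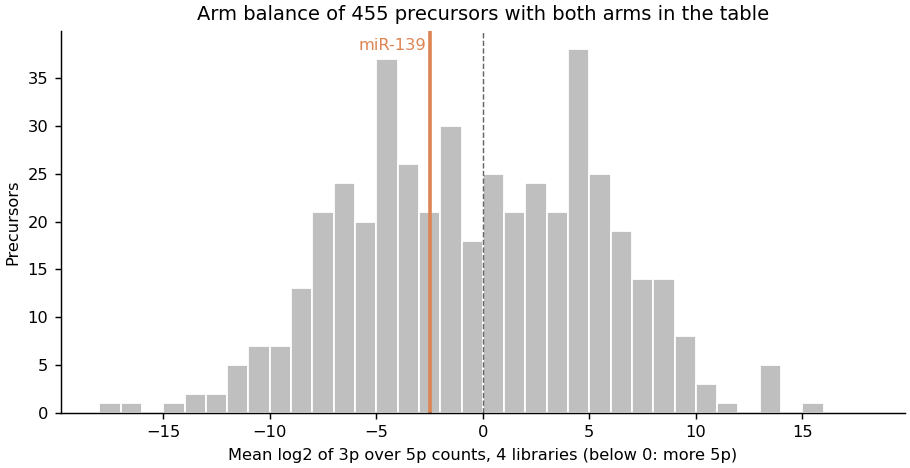
Number of precursors (y axis) by the mean log2 ratio of 3p to 5p counts over the 4 libraries (x axis, log2) for the 455 precursors with enough counts over both arms together. Values below 0 have more 5p, and the line marks miR-139 at -2.47.

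Among well-counted precursors, the ratio of miR-139 varied between libraries about as much as the median one. Between its highest and lowest library it ranged over 0.60 on the log2 scale, against a median of 1.29 over the 455 precursors. Many of those have few counts of the rarer arm, and among the 77 precursors with at least 100 counts of each arm in every library the median range was 0.61, so that miR-139 lay at percentile 46.8. The change in log2 ratio between exposed and unexposed cells was at percentile 29.2 by size among the 455, and at percentile 54.5 among the 77. The exposed and unexposed ratios did not overlap for 179 of the 455 precursors, or 39.3%, and for 22 of the 77, or 28.6%, and miR-139 was not among them. Some of the 455 had 0 counts of an arm in every library, as with miR-1250-3p. Their ratio follows the count of the other arm, and so the depth, which was greater in each exposed library. The 39.3% and the percentile of 29.2 include such precursors, and the 77 hold none.

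Across the 195 precursors with both arms tested, the log2 fold changes of 5p and 3p had a Pearson correlation of 0.394, which is a description, as the arms share libraries and scaling and precursors are not independent replicates. They had the same sign in 123 of the 195, and both were above 0 in 61. The arms of miR-139 differed by 0.25 on the log2 scale, and the median difference in size was 0.28.

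**Figure D5:**
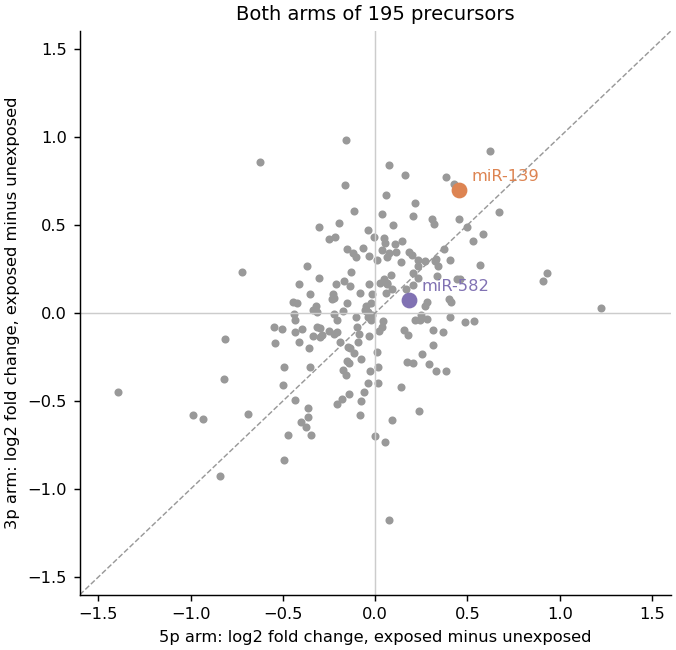
Log2 fold change of the 3p arm (y axis) against that of the 5p arm (x axis), exposed over unexposed cells, for 195 precursors, with equal change on the dashed line. miR-139 (0.45 and 0.70) and miR-582 (0.18 and 0.07), the miRNA hosted by PDE4D, are marked.

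The arms were not each other's nearest match. Likeness was measured as the root mean square difference of centred log2 levels over the 4 libraries, where 0 means the same pattern, and the arms were 0.224 apart. There were 58 miRNAs nearer to hsa-miR-139-3p than its own partner arm, which came 59th. The nearest were miR-1290 (0.041), miR-486-5p (0.080), miR-1267 (0.093), miR-128-2-5p (0.098) and miR-338-3p (0.101). All 5 were higher in both exposed libraries, with log2 fold changes between 0.55 and 0.68, and their exposed replicates lay close together, as with 67.7 and 64.7 CPM of miR-1290 against 40.9 and 42.0 CPM in unexposed cells. These traits follow from picking the 5 by their likeness to hsa-miR-139-3p in the same libraries, and nothing is read from them. miR-338-3p is also on the list of oligodendrocyte markers, whose sums overlapped between the groups. The other tested marker of that list, miR-219a-2-3p, was more abundant and went the other way (-0.19 on the log2 scale). Its TMM-scaled levels overlapped, at 71.8 and 92.0 CPM in exposed and 73.6 and 113 CPM in unexposed cells. By level the 5 nearest miRNAs ranged from miR-1267, at 1.07 CPM in each exposed library, to miR-486-5p, at 449, 466, 303 and 291 CPM.

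For hsa-miR-139-5p the 3p arm came 151st. The closest were miR-664a-3p (0.042), miR-345-5p (0.053), miR-5579-5p (0.054), miR-581 (0.066) and miR-598-3p (0.069). Each of these was higher in replicate 1 than in replicate 2 of both groups, as hsa-miR-139-5p was, and their log2 fold changes lay between 0.34 and 0.51. This too follows from how they were picked. miR-598-3p, for example, was at 615 and 543 CPM in exposed and 500 and 416 CPM in unexposed libraries. None of the 10 nearest matches appears in both lists.

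The miRNAs closest in abundance ranged on both sides of 0. The 4 nearest in mean level to hsa-miR-139-3p were miR-3615, miR-217-5p, miR-181c-3p and miR-1298-3p, with log2 fold changes of 0.25, -0.99, 0.53 and 0.16 (standard errors 0.24, 0.41, 0.29 and 0.22). Those nearest to hsa-miR-139-5p were miR-342-3p, miR-708-5p, miR-181d-5p and miR-204-5p, with log2 fold changes of -0.13, -0.03, 0.05 and -0.04, each with a standard error between 0.21 and 0.27. Some of these come from precursors on the intronic list described next: miR-342 lies in EVL, miR-708 in TENM4 and miR-204 in TRPM3.

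A list of 23 precursors was drawn up for host genes taken to be expressed in neurons, which was not measured here. Each lies within a protein-coding gene on the same strand in GENCODE 29. The list gave 39 mature miRNAs in the table, of which 34 were tested. Of these, 0 were called in either direction, against 4.52% of all tested miRNAs, which in a list of this length says nothing particular to it. There were 21 with a log2 fold change above 0, against 421 of all 863, and the median was 0.23, against -0.01 over all. With both arms in the table and a mean of at least 10 counts over both together, there were 15 precursors besides miR-139. Of these, 10 had more 5p and 5 more 3p, and 4 were nearer to equal arms than miR-139. Of the 12 of the 15 with both arms tested, 4 had both arms above 0. The nearest to miR-139 in arm ratio was miR-885, from the calcium pump gene ATP2B2, with a log2 ratio of -1.90 and log2 fold changes of 0.27 (5p, standard error 0.25) and 0.30 (3p, standard error 0.26). miR-708 had a ratio of -1.01, and log2 fold changes of -0.03 (5p) and 0.32 (3p). The change in arm ratio was larger in size than that of miR-139 in 11 of the 15. Among the 11 are miR-190a, whose 3p arm had 0 counts in every library, and miR-211, whose 3p arm had 3, 2, 0 and 1. The ratios of these 2 follow the 5p count and the depth.

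Among 27 protein-coding genes counted here as PDE genes, only PDE2A and PDE4D held a miRNA gene of the table. PDE4D codes for a phosphodiesterase specific for cAMP and holds MIR582 on its own strand. This precursor was named for its host gene, after the other values had been seen. Its main arm is the other one: miR-582-3p was at 191 and 159 TMM-scaled CPM in exposed and 170 and 163 CPM in unexposed cells, and miR-582-5p at 8.96, 6.74, 8.90 and 4.97 CPM. The log2 ratio of 3p to 5p averaged 4.56, against -2.47 for miR-139. The exposed and unexposed cultures overlapped for both arms, with log2 fold changes of 0.07 (standard error 0.22) for 3p and 0.18 (standard error 0.36) for 5p. PDE2A and PDE4D mRNA were not analysed here.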

How the data were processed

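Small RNA-seq libraries (NEBNext) of 2 ethanol-exposed and 2 unexposed cultures were processed by the authors with CAP-miRseq, and the deposited values are raw counts per mature miRNA, without normalization. The submitters' processing notes name hg19. The pipeline's version, the annotation release and the handling of reads that match several miRNAs are not given in the sources used here. Groups and replicate numbers come from the labels. The members and lists were chosen with earlier results of these data known.

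All 863 miRNAs kept by filterByExpr (minimum count 10, minimum total 15) were fitted with edgeR 4.0.16 (R 4.3.3, TMM, quasi-likelihood test, no covariates, Benjamini-Hochberg adjustment), and the standard error was taken from its F statistic. limma-voom (3.58.1), DESeq2 (1.42.0), other scalings and filters, a replicate block and leaving out each library were alternatives. The fit was tested on simulated data. Log2 levels and ratios had 0.5 added to each count. 3 counts, between 0.121 and 0.248 CPM, were taken as the smallest amount told from 0. Replicates were no repeated library (chi-square 795 and 712 per degree of freedom over 863 miRNAs). Besides the arms, the rule named any miRNA sharing a seed (0 found), the 5 nearest in pattern and 4 nearest in level to each arm, and precursors of the intronic list. Cell type markers, the nearest miRNA genes and miR-582 were named outside it. Positions come from GENCODE 29 (GRCh38) and RefSeq, matched by name (2367 of 2656 names in RefSeq), and folds from ViennaRNA 2.7.2.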

Additional observations from a re-analysis of the deposited data

How the results depend on the processing

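The log2 fold changes of hsa-miR-139-3p and hsa-miR-139-5p stayed above 0 under every alternative run. That of 3p was 0.70 and became 0.840 with library size only and 0.593 with upper quartile scaling, and with each library left out in turn it ran from 0.631 to 0.731. That of 5p ran from 0.345 to 0.629 over the scalings and from 0.255 to 0.63 with each library left out, all within 1 SD of replicates of the value with all libraries. The number of miRNAs called was 39, and became 94 with no filter on low counts, where 1825 miRNAs were tested, of which 6 had an adjusted p under 0.05. The sources used here do not say whether same-numbered cultures were handled together. The deviations of same-numbered libraries from their group means had a weak negative correlation of -0.186 across 863 miRNAs. With 2 libraries per group this value cannot decide the question. With the replicate block, 25 miRNAs were called, and pairing each culture with the other number instead, a crossed replicate block added after seeing the data, gave 59. The arms' log2 fold changes were 0.702 (3p) and 0.458 (5p) in both. The percentile of miR-139 by arm ratio, 38.7, became 41.7 with a mean of 50 counts per library, 32.0 with at least 10 counts of each arm in every library and 30.3 with a pseudocount of 5. Its percentile by change in arm ratio, 29.2, became 51.0 with at least 10 counts of each arm in every library, and ran from 0.2 to 41.4 with each library left out, the lowest without unexposed replicate 1. The difference in arm ratio rests on 2 cultures per group, and the smallest count behind it was 1325.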
